A study of Homo sapiens with 8 samples.

Results

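The 10 genes described here were CDC42, 3 kinases that bind it (CDC42BPA, CDC42BPB and CDC42BPG, also called MRCKα, MRCKβ and MRCKγ), the 5 CDC42EP effectors (CDC42EP1 to CDC42EP5, also called Borg proteins) and RND3. The rule that picks them uses names and no measured value, although the set was proposed with results of these data known, and they were found on the array by their RefSeq accessions among 20296 named genes, of which 15811 were well above background on at least 1 array. All 10 belonged to these 15811. CDC42 had 3 probes and the other 9 genes had 1 probe each, so that 12 probes were read. For each gene the probe with the highest mean level was used, and the other 9 genes were set against CDC42BPG.

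CDC42 is a small GTPase that switches between a GDP-bound and a GTP-bound form and, when bound to GTP, organises actin, filopodia and cell polarity. The MRCK kinases bind GTP-bound CDC42 and phosphorylate regulators of myosin and of cofilin, through which they act on actomyosin contraction. The CDC42EP proteins also bind GTP-bound CDC42 and link it to septin filaments and actin fibres, whereas RND3 is an atypical small GTPase that stays bound to GTP and inhibits the kinase ROCK1. p53 is a transcription factor that is stabilised by DNA damage, so the comparison of cells with and without it asks which transcripts depend on p53 after damage.

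RNA came from MCF10A, a line of human breast epithelial cells that does not form tumours, with p53 (p53+/+) and from its derivative without p53 (p53-/-). Cells were left untreated (0 h) or were exposed for 2 h to doxorubicin, also called adriamycin (ADR), which damages DNA, and were harvested 12, 24 or 48 h later; the labels give a dose of 0.5 µg/ml, and the study's methods name a higher one. Neither source says whether the p53-/- cells were 1 clone. Each genotype and time had 1 single-colour array, 8 in all, so that no value has a replicate error. Levels are log2 processed signals relative to the 75th percentile of the array, so a level of 0 is that percentile, and levels of different probes are not set against each other. The technical SD given beside a difference came from probes printed in 10 spots at a similar signal and leaves out differences between cultures. On arrays of bulk RNA, fewer cells that carry a transcript and less of it per cell cannot be told apart.

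The labels were checked first. CDKN1A (p21), which p53 activates, read -2.97, -0.96, -0.64 and -0.48 in p53-/- cells at 0, 12, 24 and 48 h against -1.14, 2.54, 2.63 and 2.70 in p53+/+ cells. MDM2, the ligase that degrades p53, read -1.33, -2.04, -1.33 and -1.57 in p53-/- cells against -1.66, 1.29, 1.49 and 1.76 in p53+/+ cells. Both genes were highest on the 3 treated p53+/+ arrays. Among the p53+/+ arrays MDM2 was lowest at 0 h, where it was also below the p53-/- array of that time. Its lowest level of all was on the p53-/- 12 h array. Among 68 probes that differed at least 4-fold between treated p53+/+ and all p53-/- arrays, and varied by at most 0.7 within each, the p53+/+ 0 h array had a median position of 0.02 on a scale from 0 (the p53-/- level) to 1 (the treated p53+/+ level). These probes were picked on treated p53+/+ arrays, so their position does not decide the label of an untreated array. At 0 h CDKN1A was higher in p53+/+ cells, unlike MDM2. As a precaution, changes from 0 h are also given against the p53-/- 0 h array where a call rests on them. The genotypes took different positions on the slide, so the effects of genotype and of position cannot be told apart. On the p53+/+ 48 h array, 1 of 350 spike-in spots was well above background, against 207 to 212 on the others.

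The clearest movement among the 10 genes was that of CDC42BPG, the γ form of the MRCK kinases. On the p53+/+ arrays its level was -6.82 at 0 h, -2.43 at 12 h, -1.95 at 24 h and -2.13 at 48 h. On the p53-/- arrays it was -5.35 at 0 h, -6.16 at 12 h, -4.36 at 24 h and -3.85 at 48 h. The 3 treated p53+/+ arrays were thus the highest and did not overlap with any of the other 5, and the p53-/- arrays at 24 and 48 h came next. The probe was not well above background on both 0 h arrays and on the p53-/- array at 12 h, where the processed signals of 21.6, 8.99 and 15.7 give no order.

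Because of these dim arrays, the changes of CDC42BPG are bounds. They divide the brighter array by the higher of the dim probe's own value and the lowest signal among probes well above background on that array. That lowest signal is no strict detection limit. ARHGAP31, a GAP for CDC42, was not well above background on the p53+/+ 24 h array at -4.02, above the lowest signal of -4.50. In p53+/+ cells CDC42BPG rose from 0 h at least 6.64-fold at 12 h, at least 9.22-fold at 24 h and at least 8.18-fold at 48 h. Against the p53-/- 0 h array, the same 3 arrays were at least 7.04-fold, 9.78-fold and 8.68-fold higher. The bounds hold for this scaling and background correction. Across the other processing choices tried, the mean p53+/+ change ran from 1.84 to 4.65 on the log2 scale. In p53-/- cells the level was at least 1.84-fold above 0 h at 24 h and at least 2.63-fold above it at 48 h, whereas neither the 12 h nor the 0 h array measured it. By these bounds the increase without p53 passed 2-fold at 48 h (technical SD 0.54 on the log2 scale) and was seen later than that in p53+/+ cells. The mean p53-/- change over the 3 times ran from 0.04 to 0.95 across the other processing choices.

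Between the genotypes at the same time, CDC42BPG was at least 8.57-fold higher in p53+/+ cells at 12 h. The difference was 5.30-fold at 24 h (2.41 on the log2 scale, technical SD 0.22) and 3.30-fold at 48 h (1.72, technical SD 0.27). With normexp background correction, which draws dim signals together, the log2 differences were 1.60, 1.56 and 1.38 at 12, 24 and 48 h. The size of the 12 h bound thus depends on the background correction. In p53+/+ cells the levels at 12 and 48 h differed by 0.30 with a technical SD of 0.27, so the narrowing over time lay on the p53-/- arrays, where the 48 h level was at least 3.20-fold above that at 12 h. By limma, the mean difference over the treated arrays was 2.62 on the log2 scale (SE 0.58, adjusted p = 0.0257 after Benjamini-Hochberg). Its p-values set the genotypes against movement over time, because the 3 treated times of a genotype take the place of replicates. Without the 24 h arrays the difference was 2.73 with an adjusted p of 0.192, without the 48 h arrays 3.07 with 0.0590, and without the p53+/+ 48 h array alone 2.60 with 0.0652, so the call rests on these arrays although the direction does not. The limma interaction of genotype and treatment was 4.09 (SE 1.15, adjusted p = 0.141) and did not pass the threshold. When both genotypes are set against the p53-/- 0 h array, that baseline cancels. The interaction then becomes the treated difference of 2.62 given above and is no second test.

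Markers of cell type were read on the same arrays. Of 8 markers of basal breast epithelium, which MCF10A cells resemble, 7 were above background on all 8 arrays, and TP63 was so on 3. Their summed level was 369 to 417 times the 75th percentile on the treated p53+/+ arrays against 117 to 142 on the treated p53-/- arrays. By limma 6 of the 8 were higher in treated p53+/+ cells, where 11.6% of all genes tested were. EGFR (0.43, adjusted p = 0.312) and TP63 (-0.28, adjusted p = 0.783) did not pass. The 4 luminal markers summed to 0.95 to 1.15 on the treated p53+/+ arrays and 0.35 to 0.62 on the treated p53-/- arrays, with PGR at background on all 8. Endothelial markers summed to 0.16 to 0.21 in treated p53+/+ and 0.33 to 0.47 in treated p53-/- cells. Their gap lay mainly in PECAM1 (limma -3.55, adjusted p = 0.00223), whereas CDH5 (0.22) and VWF (-0.07) did not pass. Fibroblast markers summed to 0.04 and 0.14 to 0.16, with none of them above background on the treated p53+/+ arrays. COL3A1 was above background on 0 of the 8 arrays. Of the luminal markers, GATA3 passed the limma test (1.53, adjusted p = 0.0189) and ESR1 and FOXA1 did not. The 6 basal markers that passed and GATA3 were thus higher on the same treated p53+/+ arrays as CDC42BPG. Within p53-/- cells, in contrast, the basal sum was 142, 119 and 117 at 12, 24 and 48 h, against an increase of CDC42BPG. The part of these markers in the CDC42BPG difference was not tested.

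**Figure D1:**
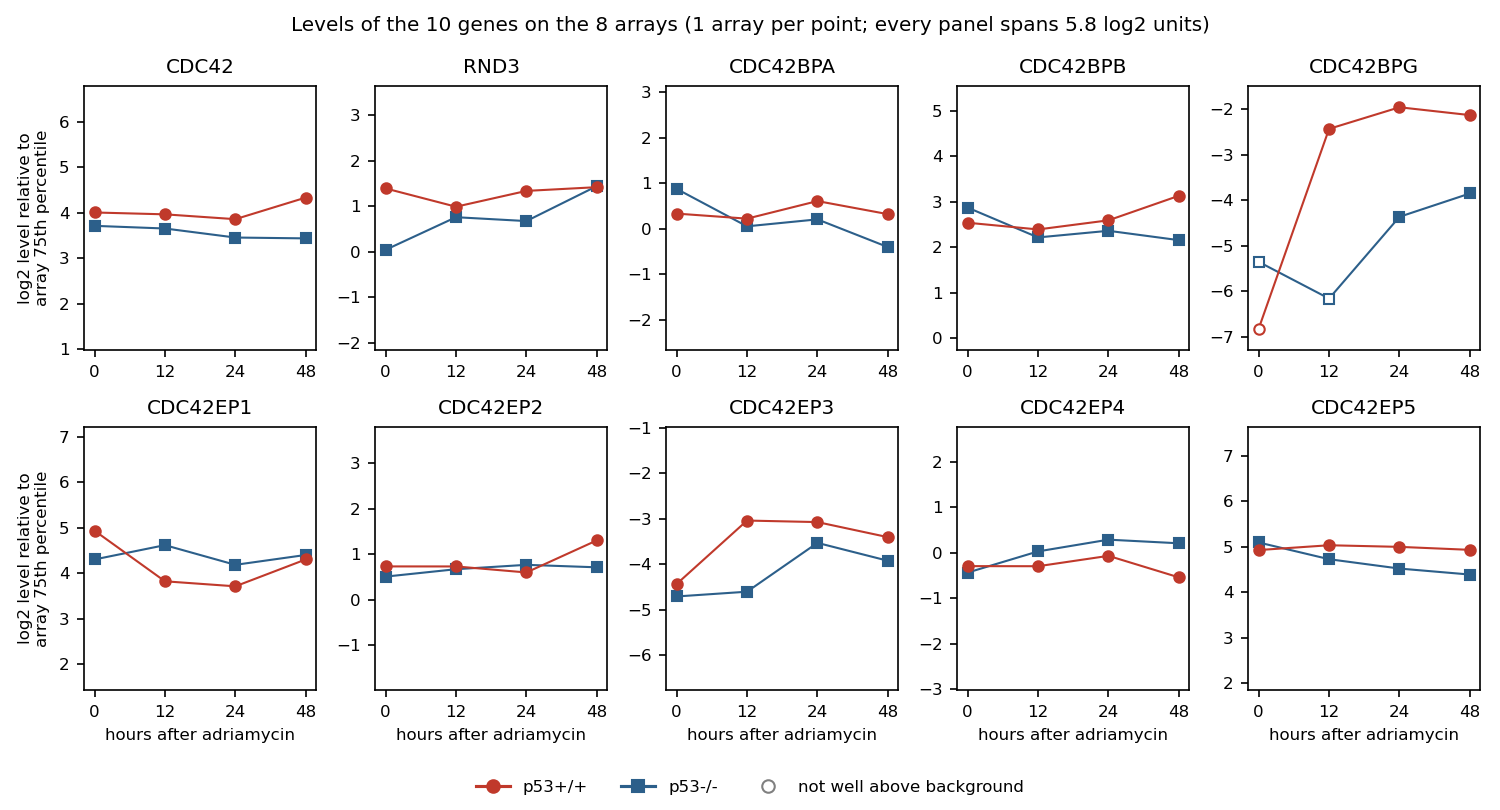
Level of each of the 10 genes (log2 processed signal relative to the 75th percentile of the array, linear axis of log2 values) at 0, 12, 24 and 48 h after ADR in p53+/+ (red circles) and p53-/- cells (blue squares), with 1 array per point and no error bars because there were no replicates. Open symbols are not well above background. CDC42BPG climbed from -6.82 to between -2.43 and -1.95 in p53+/+ cells, the widest span of the 10. Between genotypes, the mean treated difference of CDC42, CDC42BPA, CDC42BPB, CDC42EP2, CDC42EP5 and RND3 turns direction without scaling.

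CDC42BPG rose at least 2-fold at all 3 times in p53+/+ cells. So did 1 other member, CDC42EP3, although not at 48 h without scaling. This count of 2 members is read against 9.53% of the 15811 genes that did so. No member fell by that rule in p53+/+ cells (6.39% of all genes did), and none rose or fell by it in p53-/- cells (3.21% and 2.04%). CDC42BPG was the only member whose rise in p53+/+ cells also exceeded the change in p53-/- cells at least 2-fold at all 3 times (6.26% of all genes) and the only one at least 2-fold higher in treated p53+/+ than in treated p53-/- cells at all 3 times (6.75%). None fell in this p53-dependent way (4.43%), and none was at least 2-fold lower in treated p53+/+ cells at all 3 times (5.92%). At 10 genes these shares are close to those of all genes, and the counts say nothing particular about the family. By limma 1 member was higher in treated p53+/+ cells (10.6% of 28947 probes) and 0 were lower (7.4%), and 0 passed the interaction in either direction (0.94% and 0.746%).

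The remaining kinases of the family, CDC42BPA and CDC42BPB, which share the kinase and CDC42-binding parts of CDC42BPG, did not follow it. CDC42BPA read 0.88, 0.06, 0.21 and -0.40 in p53-/- cells at 0, 12, 24 and 48 h against 0.34, 0.23, 0.61 and 0.33 in p53+/+ cells. CDC42BPB read 2.87, 2.21, 2.36 and 2.15 in p53-/- cells against 2.53, 2.39, 2.59 and 3.13 in p53+/+ cells. For both genes the highest p53-/- array was that at 0 h, and all treated p53-/- arrays lay below it by 0.51 to 1.28 on the log2 scale. In p53+/+ cells the changes from 0 h were -0.11, 0.28 and -0.01 for CDC42BPA and -0.15, 0.05 and 0.59 for CDC42BPB, each with a technical SD of 0.08 to 0.10. The mean genotype difference in treated cells was 0.43 for CDC42BPA (limma adjusted p = 0.240) and 0.46 for CDC42BPB (adjusted p = 0.227), and both turned to -0.17 and -0.14 without scaling. Set against CDC42BPG, the p53+/+ change of both kinases was more than 2-fold smaller at each of the 3 times. The genotype difference of CDC42BPG at 48 h, in contrast, exceeded that of CDC42BPA by 1.0 (technical SD 0.29) and that of CDC42BPB by 0.75 (technical SD 0.29), both under 2-fold.

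CDC42 itself changed little after ADR in either genotype by its brightest probe. Its level was 3.72, 3.66, 3.46 and 3.44 in p53-/- cells at 0, 12, 24 and 48 h against 4.01, 3.97, 3.86 and 4.34 in p53+/+ cells. All p53+/+ arrays were above all p53-/- arrays, and already so at 0 h, by 0.29, although the mean difference in treated cells turned without scaling. The changes from 0 h were small, at most 0.33 in p53+/+ and -0.28 in p53-/- cells (technical SD 0.06). The mean difference in treated cells was 0.54 (limma adjusted p = 0.115) and was -0.06 without scaling.

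The other CDC42 probes were not alike. The second probe of the same transcript, NM_001039802, read 1.41, 1.47, 1.17 and 1.08 in p53-/- cells against 1.68, 2.19, 1.76 and 1.80 in p53+/+ cells, again higher in p53+/+ at each time. The remaining probe, designed to another CDC42 transcript, NM_044472, read -3.41, -3.65, -4.41 and -4.10 in p53-/- cells against -3.23, -4.97, -6.53 and -5.33 in p53+/+ cells. It was above background at 0 h in both genotypes and on all p53-/- arrays, and not well above background on the 3 treated p53+/+ arrays. From 0 h it was at least 2.91-fold, 2.42-fold and 2.63-fold lower at 12, 24 and 48 h in p53+/+ cells. Against p53-/- cells of the same time, it was at least 2.18-fold, 1.06-fold and 1.44-fold lower. Its limma difference in treated cells was -1.55 (SE 0.43, adjusted p = 0.0531), just outside the threshold, and ranged from -2.15 with no scaling to -0.10 with normexp background correction. With time point as a block the same difference passed (adjusted p = 0.0266), as it did with median scaling (0.0413), no scaling (0.0138) and no filter (0.0394). The mean of the dim probe was lower in treated p53+/+ cells under each scaling tried, although with normexp its 48 h difference was 0.14 and with a signal floor its 24 h difference was -0.09, whereas the mean difference of the brightest probe was positive with scaling and negative without it.

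**Figure D2:**
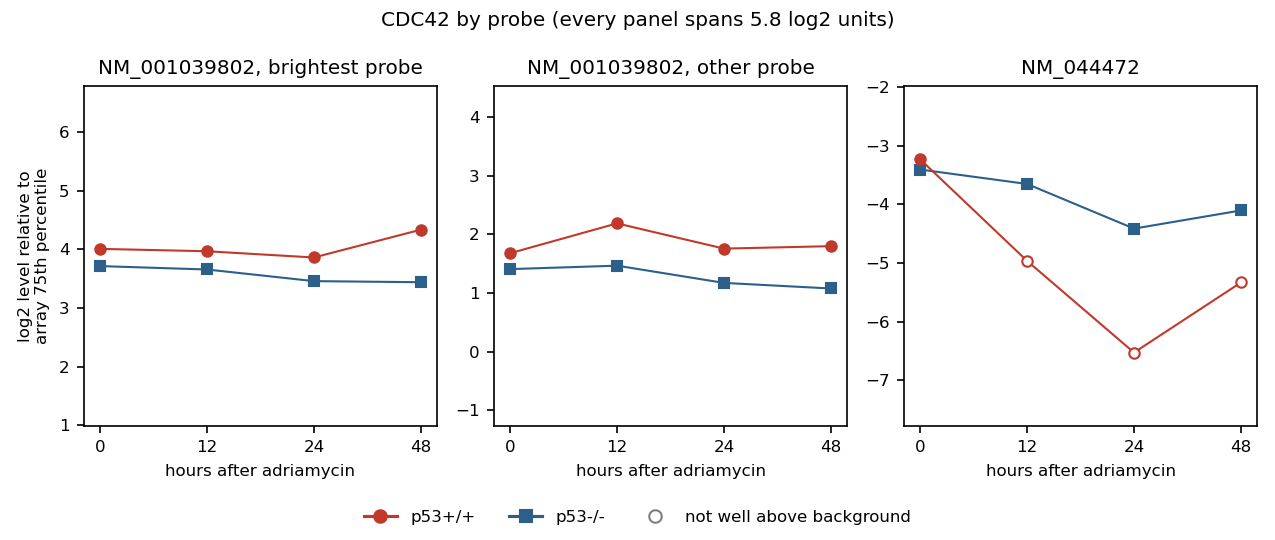
Level of the 3 CDC42 probes (log2 relative to the 75th percentile of the array) against hours after ADR in p53+/+ (red circles) and p53-/- cells (blue squares), 1 array per point, with open symbols for arrays not well above background. The bright probe stays between 3.44 and 4.34, a genotype difference that turns without scaling, whereas the NM_044472 probe drops to background on the 3 treated p53+/+ arrays.

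RND3 moved in the p53-/- cells instead. Its probe was printed in 10 spots, which makes it the most precise of the members (technical SD of a difference 0.03 to 0.04). It read 0.04, 0.76, 0.67 and 1.44 in p53-/- cells at 0, 12, 24 and 48 h against 1.39, 0.99, 1.33 and 1.42 in p53+/+ cells. The p53-/- 0 h array was the lowest of the 8, 1.35 below the p53+/+ array of that time, and the p53-/- arrays reached the p53+/+ level at 48 h. The treated groups overlapped, with a mean difference of 0.29 (limma adjusted p = 0.495) that turned to -0.31 without scaling. The interaction was -1.06 (limma adjusted p = 0.373). It takes its sign from the 0 h arrays, whose difference of 1.35 exceeded the mean treated difference of 0.29.

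Among the CDC42EP effectors, CDC42EP3 was the one that rose. It read -4.71, -4.60, -3.53 and -3.92 in p53-/- cells at 0, 12, 24 and 48 h against -4.44, -3.04, -3.08 and -3.41 in p53+/+ cells. The 3 treated p53+/+ arrays were the highest of the 8. From 0 h the p53+/+ level was 2.63-fold, 2.57-fold and 2.04-fold higher at the 3 times, the last of them just past 2-fold. Its processed signals in p53+/+ cells were low, 46.9 at 0 h and 99.3, 96.8 and 62.4 at 12, 24 and 48 h. Without scaling, the 48 h signal was therefore less than 2-fold above that at 0 h. The p53-/- cells followed later, with changes of 0.10, 1.18 and 0.78 on the log2 scale (technical SD 0.54). The genotype difference was therefore largest at 12 h, at 1.56, and was 0.46 at 24 h and 0.52 at 48 h (technical SD 0.27), with a limma mean of 0.85 (SE 0.30, adjusted p = 0.104); without scaling it was -0.03 at 24 h and -0.34 at 48 h. This was the nearest among the members to the course of CDC42BPG, whose p53-/- arrays also came up after 12 h. Over the 8 arrays, which share the 2 genotypes and their times, Pearson's r of CDC42EP3 with CDC42BPG was 0.90 as a description.

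CDC42EP1 and CDC42EP4 went the other way. CDC42EP1 read 4.30, 4.62, 4.18 and 4.40 in p53-/- cells against 4.93, 3.82, 3.71 and 4.30 in p53+/+ cells. Its 0 h array was the highest in p53+/+ cells, and the level was 2.16-fold, 2.33-fold and 1.55-fold lower at 12, 24 and 48 h, so that it missed the 2-fold rule at the last time. Against the p53-/- 0 h array, which was 0.63 lower than that of p53+/+ cells, the same arrays differed by -0.48, -0.59 and -0.00 on the log2 scale. The treated groups of CDC42EP1 overlapped. CDC42EP4 read -0.44, 0.03, 0.28 and 0.20 in p53-/- cells against -0.30, -0.30, -0.07 and -0.54 in p53+/+ cells. All 3 treated p53+/+ arrays of CDC42EP4 were below the treated p53-/- arrays. Its p53-/- levels were above 0 h by 0.47, 0.72 and 0.64, and the p53+/+ changes were -0.00, 0.23 and -0.25 (technical SD 0.11 to 0.13). The mean treated difference was -0.46 for CDC42EP1 (limma adjusted p = 0.222) and -0.48 for CDC42EP4 (adjusted p = 0.148), and without scaling -1.05 (adjusted p = 0.0112) and -1.07 (adjusted p = 0.0222), in the same direction.

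CDC42EP2 and CDC42EP5 stayed within 2-fold of 0 h in both genotypes. CDC42EP2 read 0.51, 0.67, 0.77 and 0.71 in p53-/- cells against 0.73, 0.73, 0.60 and 1.30 in p53+/+ cells, with overlapping treated groups and only the p53+/+ 48 h array apart. Its mean treated difference was 0.16 (limma adjusted p = 0.673), which turned to -0.05 without that array and to -0.44 without scaling. CDC42EP5 read 5.10, 4.73, 4.52 and 4.39 in p53-/- cells against 4.93, 5.04, 5.0 and 4.94 in p53+/+ cells. The p53-/- levels of CDC42EP5 were 0.37, 0.57 and 0.70 below 0 h, those of p53+/+ cells within 0.11 of it (technical SD 0.09). The mean treated difference of CDC42EP5 was 0.44 (limma adjusted p = 0.135) and turned to -0.16 without scaling.

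**Figure D3:**
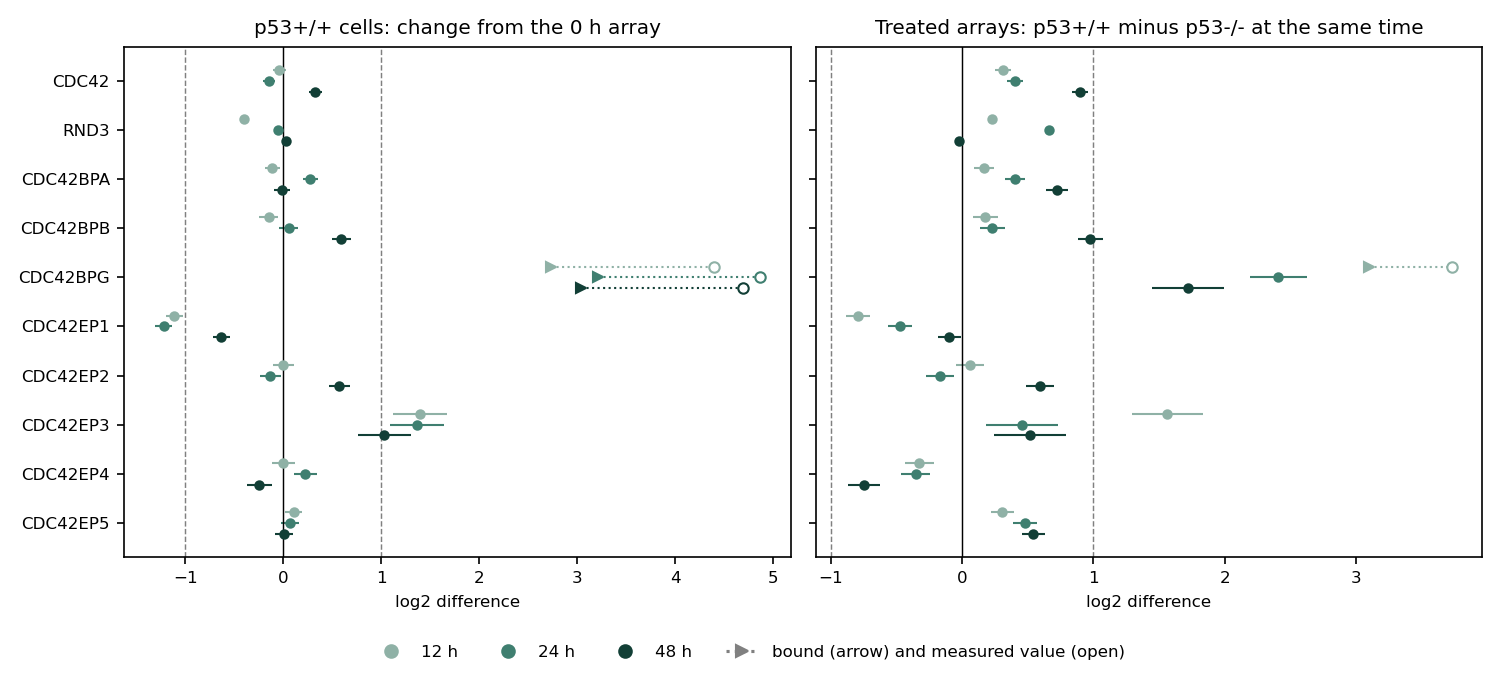
Left, log2 change from the 0 h array in p53+/+ cells, and right, log2 difference between p53+/+ and p53-/- cells of the same time, for each of the 10 genes at 12, 24 and 48 h (light to dark), with 1 array per condition. Bars are the technical SD, dashed lines mark 2-fold, and for CDC42BPG the arrows are bounds and the open circles measured values where an array was not well above background. CDC42BPG lies to the right of the other 9 at all times in both panels; the right panel's small positive differences of CDC42, CDC42BPA, CDC42BPB, CDC42EP2, CDC42EP5 and RND3 turn, on average, without scaling.

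Against CDC42BPG as a whole, all 9 relatives had a p53+/+ change at least 2-fold smaller than its bound at each of the 3 times, the relatives' changes ranging from -1.11 to 1.39 at 12 h, from -1.22 to 1.36 at 24 h and from -0.63 to 1.03 at 48 h. In the difference between genotypes, all 9 were at least 2-fold smaller at 12 and 24 h and 6 of 9 at 48 h, the exceptions being CDC42, CDC42BPA and CDC42BPB. With normexp background correction, which draws dim signals together, 2 of 9 were at least 2-fold smaller at all 3 times. By position alone, 6 members (CDC42, CDC42BPA, CDC42BPB, CDC42BPG, CDC42EP3 and CDC42EP5) had all 3 treated p53+/+ arrays above the treated p53-/- arrays, where 24.6% of all genes did, and 1 (CDC42EP4) had them all below, where 19.9% did. This order depends on the scaling: without it, the mean difference of CDC42, CDC42BPA, CDC42BPB and CDC42EP5 turned, and the median difference of all 15811 genes moved from 0.09, -0.03 and 0.10 at 12, 24 and 48 h to -0.37, -0.52 and -0.76. Median scaling gave -0.18, -0.12 and 0.06 and normexp 0.16, 0.12 and 0.26 for the same median. Relative to it, the unscaled differences of CDC42BPG, 3.28, 1.92 and 0.86, stayed well above.

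The promoters of CDC42EP3, the relative that rose, and of CDC42EP4, the one whose treated p53+/+ arrays were all lower, are shown for the letters near their start sites. RefSeq (GRCh38.p14) gave promoter windows, from 250 bases before to 50 after a start, for 8 of the 10 genes in 11 entries; CDC42BPG and CDC42EP5 had none. The CHR letters TTTGAA, searched on both strands, are those through which cell cycle promoters are bound by the DREAM complex, and they are in capitals below. They stood in 15.2% of 35116 windows, and among the members in 2 of the 3 entries of CDC42EP3, at bases -200 and -172 from the start, and in that of CDC42EP4, at base -172. The p53 half-site, searched by its consensus, was in 6.63% of all windows and in none of the 11. A match is a description of letters and not of a bound site. The windows are CDC42EP3 at chr2:37672900-37673199 and at chr2:37672170-37672469 and CDC42EP4 at chr17:73311952-73312251, all on the minus strand and written 5′ to 3′ along it.
CDC42EP3, upstream window: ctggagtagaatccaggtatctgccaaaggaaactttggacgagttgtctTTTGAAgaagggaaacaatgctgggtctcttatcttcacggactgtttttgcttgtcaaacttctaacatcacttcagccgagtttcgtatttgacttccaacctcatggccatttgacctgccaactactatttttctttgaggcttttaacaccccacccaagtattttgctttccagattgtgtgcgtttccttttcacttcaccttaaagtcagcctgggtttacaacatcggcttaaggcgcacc
CDC42EP3, downstream window: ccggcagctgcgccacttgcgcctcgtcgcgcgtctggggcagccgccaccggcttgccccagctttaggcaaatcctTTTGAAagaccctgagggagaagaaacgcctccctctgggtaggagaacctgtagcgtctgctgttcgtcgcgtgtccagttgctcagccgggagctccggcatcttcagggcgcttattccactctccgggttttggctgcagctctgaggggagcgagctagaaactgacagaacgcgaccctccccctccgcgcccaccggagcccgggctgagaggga
CDC42EP4: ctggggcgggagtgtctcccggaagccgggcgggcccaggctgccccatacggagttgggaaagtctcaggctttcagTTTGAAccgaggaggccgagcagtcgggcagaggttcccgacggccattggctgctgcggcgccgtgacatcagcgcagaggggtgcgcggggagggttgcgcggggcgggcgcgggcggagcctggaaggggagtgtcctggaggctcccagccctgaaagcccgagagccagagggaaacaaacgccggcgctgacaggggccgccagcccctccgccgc

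Around the members, 6 lists of pathway genes were read: GTPases related to CDC42 and RND3, exchange factors that load CDC42 with GTP, GAPs and GDIs that turn it off or hold it inactive, other effectors, kinases related to MRCK with the myosin pathway, and septins. Of their 75 genes 70 were above background on at least 1 array. By limma 6 of these 70 (8.57%) were higher and 4 (5.71%) were lower in treated p53+/+ cells, against 11.6% and 9.33% of all genes tested. The median treated difference of the 70 was 0.14, beside 0.05 for all genes. Both shares were a little below those of all genes, and at 70 genes the counts say nothing particular about the lists.

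The effectors held 2 of the 3 genes named by the size rule as higher, both binders of GTP-bound CDC42. PAK6, a p21-activated kinase, read -1.89, -1.10, -0.82 and -0.51 in p53-/- cells at 0, 12, 24 and 48 h against -2.01, 1.98, 2.42 and 1.74 in p53+/+ cells. PARD6G, a member of the PAR6 polarity complex, read -2.69, -2.73, -2.62 and -2.73 in p53-/- cells against -2.96, -0.11, 0.68 and 0.53 in p53+/+ cells. Both were near each other in the genotypes at 0 h and rose in p53+/+ cells at each time, PAK6 in part also in p53-/- cells, by 1.38 at 48 h. The limma difference in treated cells was 2.86 for PAK6 (SE 0.26, adjusted p = 0.00148) and 3.06 for PARD6G (SE 0.25, adjusted p = 0.001). For PAK6 the adjusted p was 0.0570 without the 24 h arrays. In this list of 20 genes, 18 were tested, and besides these 2 only PARD6B passed (1.39, adjusted p = 0.0371), named after its values were seen. Its adjusted p was 0.139 without scaling, 0.124 without the 12 h arrays, 0.255 without the 24 h arrays and 0.0851 without the p53+/+ 48 h array. None of the 18 was lower by the test, and their median difference was 0.28.

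Among 13 kinases and myosin pathway genes, LIMK2, which phosphorylates cofilin, had the largest mean difference over the treated arrays. It read 1.63, 1.05, 1.57 and 1.88 in p53-/- cells at 0, 12, 24 and 48 h against 1.34, 4.54, 5.15 and 4.78 in p53+/+ cells. All treated p53+/+ arrays were far above the other 5, and the limma difference was 3.32 (SE 0.28, adjusted p = 0.00116; 0.0529 without the 24 h arrays). CIT, the citron kinase of cytokinesis, read 2.66, 1.30, 2.05 and 1.78 in p53-/- cells against 1.54, 0.05, 0.46 and -3.71 in p53+/+ cells. It was more than 2-fold lower in treated p53+/+ cells at each time, but already 2.18-fold lower in p53+/+ cells at 0 h. In p53-/- cells CIT also fell from 0 h, with changes of -1.37, -0.61 and -0.89 on the log2 scale. Since the p53+/+ 48 h array stood so far below the rest, the limma mean of -2.78 had an SE of 1.06 and an adjusted p of 0.119. Without that array the limma mean was -1.45 with an adjusted p of 0.0315. MYL12B, a myosin light chain, was higher by 0.73 (adjusted p = 0.0292), and was named after its values were seen. Its call was lost without scaling (0.522), with quantile (0.137) or median scaling (0.0726), with time as a block (0.0597) and when any treated time was left out. The remaining members of the list, ROCK1 and ROCK2 among them, did not pass, and the list's median was -0.05.

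Among the regulators of CDC42, the genes named by the rule were lower. DOCK10, an exchange factor for CDC42, read 0.91, 1.37, 0.46 and -0.28 in p53-/- cells at 0, 12, 24 and 48 h against 1.51, -1.72, -2.30 and -2.67 in p53+/+ cells. It was the highest of all at 0 h in p53+/+ cells and fell after ADR in these cells, with a limma difference in treated cells of -2.75 (SE 0.46, adjusted p = 0.0110; 0.155 without the 24 h arrays). ARHGAP31, a GAP for CDC42, read -2.11, -2.19, -2.33 and -2.59 in p53-/- cells against -2.03, -3.29, -4.02 and -4.31 in p53+/+ cells, the last 2 not well above background. It was lower in p53+/+ cells by 1.10 on the log2 scale at 12 h. At 24 and 48 h the measured ratios were 3.23-fold and 3.28-fold, each to a signal not well above background. The limma difference was -1.50 (SE 0.30, adjusted p = 0.0192), and -0.58 with normexp background correction. Its adjusted p was 0.207 without the 24 h arrays and 0.0676 without the 48 h arrays. DOCK10 was the only one of 15 tested exchange factors to pass, and their median was 0.36. The exchange factors did not fall as a list. From 0 h in p53+/+ cells, 3 of the 15 rose at least 2-fold at all 3 times and 1 fell, against 9.53% and 6.39% of all genes. Of 9 GAPs and GDIs 3 passed, ARHGAP31, ARHGAP44 (-1.56, adjusted p = 0.0371, 0.240 with the mean of its probes and 0.0581 with time as a block) and ARHGAP1 (0.70, adjusted p = 0.0425, 0.644 without scaling and 0.0664 with time as a block), the latter pair named after their values were seen. Leaving out any treated time ended both of the latter calls, and quantile or median scaling ended that of ARHGAP1. The median of the list was -0.03.

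Of the GTPases related to CDC42 and RND3, 4 of 6 were tested and RHOU was lower, by -1.24 (limma adjusted p = 0.0217; 0.117 without the 48 h arrays, 0.191 without the 24 h arrays and 0.0530 without the p53+/+ 48 h array), named after its values were seen. It read -1.39, -2.38, -1.58 and -1.86 in p53-/- cells against -3.54, -3.07, -3.04 and -3.42 in p53+/+ cells, so that the difference was already present at 0 h, where it was -2.15. None of the 11 septins, the filaments to which CDC42EP proteins bind, passed the test, with a median of -0.05.

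**Figure D4:**
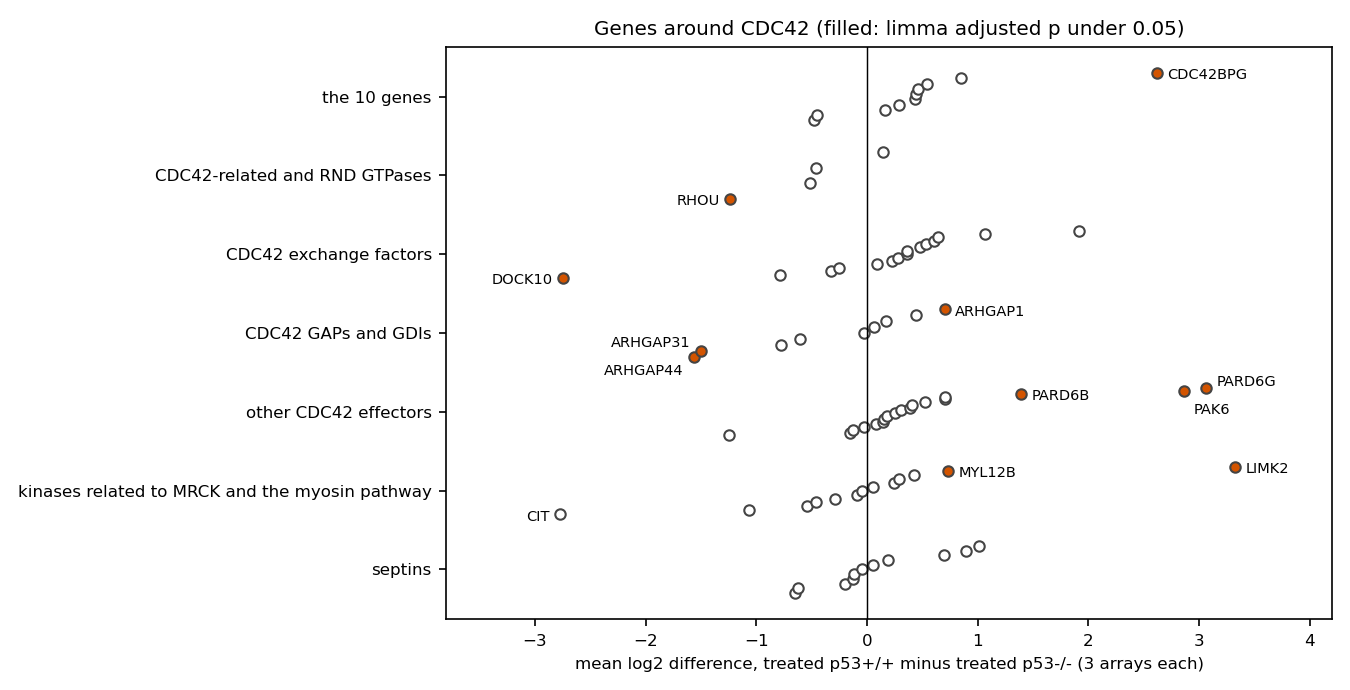
Mean log2 difference between treated p53+/+ and treated p53-/- cells (3 arrays each, 12, 24 and 48 h) for the 10 members and for the tested genes of the 6 pathway lists, 1 point per gene at its list's height. Filled points have a limma adjusted p under 0.05; LIMK2 at 3.32, PARD6G at 3.06, PAK6 at 2.86 and CDC42BPG at 2.62 lie farthest right, whereas the calls of ARHGAP1, MYL12B and PARD6B are lost without scaling.

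The genes most like CDC42BPG in level over the 8 arrays, by Pearson's r among 8877 genes, were DAPK1 (0.993), a death-associated kinase, RAB17 (0.993), a Rab GTPase of epithelial cells, ATG2A (0.993), a lipid transfer protein of autophagy, KIAA0513 (0.993) and GJB5 (0.991), a connexin. RAB17 read -1.59, -1.94, -0.75 and -0.15 in p53-/- cells at 0, 12, 24 and 48 h against -2.38, 1.02, 1.58 and 0.98 in p53+/+ cells. Like CDC42BPG it was low at 0 h in both genotypes, rose on all treated p53+/+ arrays and was higher at 24 and 48 h in p53-/- cells, but above background on all 8 arrays. DAPK1 was above background on 5. These are the highest values out of many genes over 8 points that share 2 genotypes, and 3 of the CDC42BPG points were at background. Among the members, r with CDC42BPG was 0.90 for CDC42EP3, -0.84 for CDC42EP1 and between -0.12 and 0.40 for the other 7.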

How the data were processed

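The 10 genes and the lists of pathway and marker genes were chosen with earlier results of these data known. Per the file headers, the authors deposited the output of Agilent Feature Extraction 10.7.3.1 (build hg19) for 8 SurePrint G3 human arrays, with 1 array per genotype and time. The deposited processed signal is an intensity on a linear scale, corrected for background by that software; its series table held the same values (503808 of 503808 equal within a relative 1e-05), and a normalization between arrays is not given in the sources used here. The 75th percentile of the signal was 661 to 1199 per array, and 0 spots were saturated.

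Control spots were excluded, as were spots that the software had marked for uneven or outlying pixels, so that 14 probes dropped out and 42391 remained. The log2 signal minus the log2 of the array's 75th percentile was taken as the mean of each probe's spots. Accessions matched 27227 probes (64.2%) to 20296 genes of GRCh38.p14, so no array coordinates are printed. The limma fits (lmFit, eBayes) took the 28947 probes that were well above background on any array and modelled genotype over the 6 treated arrays, or genotype, treatment and their interaction over all 8, with calls made at 0.05 after Benjamini-Hochberg adjustment. A rise or fall by size was 2-fold at all 3 times. Technical SDs came from 999 probes printed in 10 spots.

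All 10 members are described. A list gene was named where treated genotypes differed at least 2-fold one way at all 3 times and the higher one was well above background, at most 3 each way per list; genes that passed the limma test alone were added after their values were seen. The 5 genes most like CDC42BPG came from genes above background on at least 3 arrays with a range of at least 1. Alternatives were quantile, median and no scaling, normexp (offset 50, on the median spot signal), the mean of all probes, other filters, a signal floor, a 3-fold rule, 2 of 3 times, each time left out, time as a block and the p53-/- 0 h array as the common baseline; leaving out the p53+/+ 48 h array alone was added after the data were seen. Scripts were tested on simulated data. Some marker and check genes are not reported here. Precision is limited throughout by the number of arrays. Fits ran in R 4.3.3 with limma 3.58.1, the rest in Python 3.11.15 (pandas 2.3.3, numpy 2.4.6, matplotlib 3.10.9).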

Additional observations from a re-analysis of the deposited data

Results flagged for a closer look

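The changes of 3 genes differed between the genotypes by the fit, and those of 2 more only had opposite signs. For PAK6 the limma interaction of genotype and treatment was 2.98 on the log2 scale (adjusted p = 0.0498, range over the alternatives 0.0015 to 0.289), with the treated p53+/+ level above that of p53-/- cells at 3 of 3 times. For PARD6G it was 3.34 (adjusted p = 0.0347, range 0.001 to 0.270), and for LIMK2 3.62 (adjusted p = 0.0377, range 0.0012 to 0.286), likewise at 3 of 3 times. Each of the 3 was past the threshold only narrowly: leaving out any treated time or the p53+/+ 48 h array, or taking time as a block, ended the call for each of them. The low end of each range came from the p53-/- 0 h array as common baseline, which only repeats the treated difference. CDC42EP5 moved in opposite directions from 0 h at all 3 times, which gave a difference of 0.61 that was not called by the fit (adjusted p = 0.441); the p53+/+ changes of 0.11, 0.07 and 0.00 had a technical SD of 0.09. RHOU did the same with 0.92 (adjusted p = 0.425), with p53+/+ changes of 0.47, 0.50 and 0.12 and p53-/- changes of -0.99, -0.20 and -0.47, and its sign depended on the 0 h array. The differences of CDC42EP5 and RHOU at single times were not tested, since each rests on 1 array per condition.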

How the results depend on the processing

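Of 697 values recomputed for 69 results, 20 fitted differences changed direction. The untested mean changes of CDC42, CDC42BPA, CDC42BPB, CDC42EP2, CDC42EP4, CDC42EP5 and RND3 from 0 h also changed sign under some alternatives. The count of members past the treated limma test, 1 as reported, was 3 without scaling (CDC42BPG, CDC42EP1 and CDC42EP4), 2 with normexp (CDC42BPG and CDC42EP3), 0 to 1 when a treated time was left out, 0 without the p53+/+ 48 h array and 0 with probes above background on all arrays, a filter that removes CDC42BPG. The interaction count, 0 as reported, was 1 without scaling (CDC42EP1) and 1 with normexp (CDC42BPG). It was also 1 with the p53-/- 0 h array as the common baseline (CDC42BPG), where the fit equals the treated difference by construction. The size rule, 1 as reported, gave 2 without scaling or at 2 of 3 times (CDC42BPG and CDC42EP1 in both) and 0 with the strict filter. Of the relatives, 6 lay at least 2-fold below CDC42BPG in the treated comparison and 2 with normexp. The directions that turned in treated arrays without scaling were CDC42 (-0.061), CDC42BPA (-0.17), CDC42BPB (-0.14), CDC42EP2 (-0.44), CDC42EP5 (-0.16) and RND3 (-0.31); CDC42 also turned with the mean of its probes (-0.11), and CDC42EP2 without the p53+/+ 48 h array (-0.051). In the interaction, those without scaling were CDC42 (-0.56), CDC42BPB (-0.013), CDC42EP3 (-0.23), CDC42EP5 (-0.20), ARHGAP1 (-0.35) and MYL12B (-0.22), that with the mean of probes was CDC42 (-0.36), and those with the p53-/- 0 h baseline were CDC42EP2 (0.16), RND3 (0.29) and RHOU (-1.24). The values with the p53-/- 0 h baseline are the treated differences themselves, to which that baseline reduces the interaction. With a treated time left out, the treated difference of CDC42EP2 ranged from -0.053 to 0.33 and its interaction from -0.28 to 0.10. No scaling leaves array brightness in the differences, and the cause of the other turns was not tested. The labels carry no replicate numbers, so the genotypes could be paired only by time point. That pairing, as a block, left the counts of members at 1 and 0, but changed some single calls given above, that of the NM_044472 probe among them. Signal over background limits CDC42BPG, CDC42EP3 and the NM_044472 probe.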
